A study of Mus musculus with 24 samples.

Results

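Expression of 45 genes of macroautophagy, the core machinery that builds the autophagosome and the receptors that load its cargo, was followed in muscle stem cells of mice. The genes were taken by name and not by their values from a table of 17111 genes. All 45 were found, and all 45 passed the filter on low values, under which a gene had to reach 1 in 4 or more of the 24 libraries and which left 16985 genes. The cells came from mice labelled L2A-WT (WT below) or L2A-Pax7CreER (KO below, as in the table's column names), a comparison of intact and deleted Lamp2a. Muscle was uninjured (day 0) or was taken 1 or 4 days after cardiotoxin (50 µL at 10 µM, into the muscle), a toxin that destroys myofibres and so sets off repair. Each of the 6 groups of genotype and day held 4 libraries, all with batch label 1, made by SMART-Seq v4 from bulk RNA. In the KO mice Cre is named for Pax7, a gene of muscle stem cells, and CreER is a form that needs an inducing drug. The labels give no drug dose, age, sex or strain, and no group with Cre and an intact Lamp2a, so Cre itself and the loss of Lamp2a cannot be told apart. Whether a group's 4 libraries stand for 4 animals is not stated, and p-values here reflect the spread among libraries, which may be technical.

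Macroautophagy encloses cytoplasm in a double membrane and delivers it to lysosomes. The ULK1 kinase complex starts the process, a class III PI3-kinase complex marks the membrane with PI3P, ATG9 and ATG2 supply lipid, and a ubiquitin-like conjugation system attaches proteins of the ATG8 family (LC3 and GABARAP) to it. Cargo receptors such as p62, the product of Sqstm1, bind cargo and ATG8 proteins at once, and in quiescent muscle stem cells autophagy is known to keep proteins and mitochondria in order. Lamp2 encodes, among other splice forms, LAMP-2A, the lysosomal receptor of chaperone-mediated autophagy, a route that forms no autophagosome.

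Libraries held between 11.58 and 22.47 M counted reads. Values below are normalised counts, a count per M reads after the authors' scaling of library size. Lamp2, measured over all its splice forms, ran from 371 to 457 in WT and from 290 to 457 in KO libraries at day 1, and it passed the test at no day. Such a sum does not check the deletion of 1 splice form. Libraries of a group varied most at day 0, where the median SD of the 45 genes on the log2 scale was 0.826 in WT and 0.634 in KO, against 0.284 and 0.333 at day 1 and 0.266 and 0.453 at day 4. Summed markers of muscle stem cells were 2499 to 4810 at days 0 and 1 and 1080 to 1274 at day 4. The single markers did not move together. In WT from day 0 to day 4, mean Chodl went from 641 to 17.5 and Vcam1 from 778 to 210. Pax7 stood at 68.9 and 71.3, Itga7 rose from 270 to 532 and Cdh15 from 20.2 to 172. The other markers on that list fell. Of 12 macrophage and monocyte markers, all 12 rose in WT from day 1 to day 4, and their sum went from 6.99–27.4 over the 8 libraries of day 1 to 962–1507 over the 8 of day 4. In bulk RNA, fewer cells of a type and less RNA per cell cannot be told apart, and each comparison between days carries the change of cells between them.

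**Figure D1:**
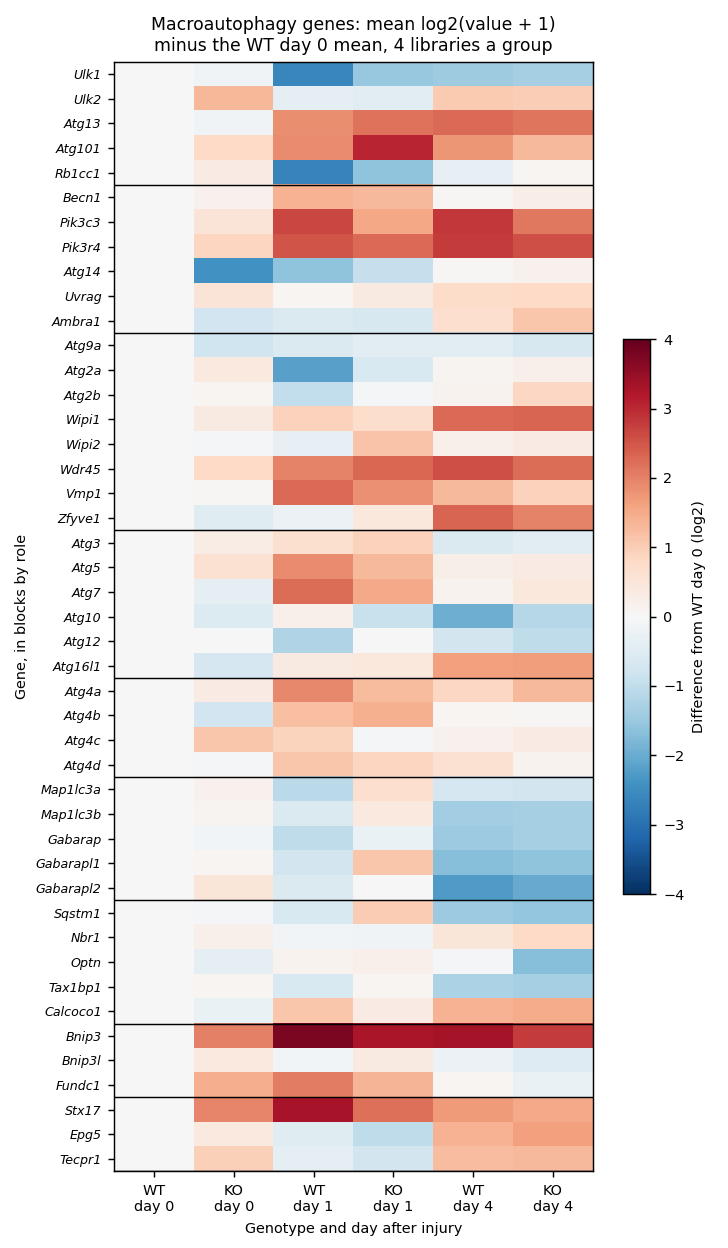
Mean log2(value + 1) of each of the 45 genes in the 6 groups, as the difference from the WT day 0 mean (colour, from blue for lower to red for higher); rows are genes in blocks by role and columns are genotype and day, with 4 libraries a group. Sqstm1 and the 5 genes of the ATG8 family are lower in WT at day 1 than at day 0, while Sqstm1 and Gabarapl1 are higher in KO, and all of these are low in both genotypes at day 4.

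The genotypes differed in macroautophagy genes at day 1 after injury. There 22 of the 45 genes differed between KO and WT, 15 higher and 7 lower in KO (limma, adjusted p under 0.05), or 48.9%, beside 23.3% of all genes tested (12.8% higher and 10.5% lower). In each of the 22 the 4 KO libraries lay apart from the 4 WT libraries, as they did for Calcoco1, which makes 23 of 45 beside 26.2% of all genes. The whole ATG8 family was higher in KO, with Sqstm1, part of the ULK1 kinase complex and both ATG2 lipid carriers. Atg5 and Atg10 of the conjugation system, Stx17 and the mitophagy receptors Bnip3 and Fundc1 were lower. Atg12 of the conjugation system and the mitophagy receptor Bnip3l were higher. The median size of the difference, without its sign, was 0.657 on the log2 scale over the 45 genes and 0.354 over all genes tested. With all 24 libraries in 1 fit, which lends day 1 the larger spread of day 0, 13 genes were called higher and 0 lower (limma), beside 1562 of all 16985 genes in either direction, so the 7 lower calls rest on the spread of the day 1 libraries alone.

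Sqstm1 encodes p62, the receptor that links ubiquitin on cargo to LC3, and itself a substrate of autophagy. The 4 KO libraries gave 3950, 3749, 4409 and 3606 normalised counts at day 1, and the 4 WT libraries 1147, 1311, 1449 and 1126. Every KO library was above every WT library, a difference of 1.65 ± 0.11 (SE) on the log2 scale, or 3.13-fold (limma, adjusted p = 6.21e-05). Among all 6 groups, KO day 1 was the only one whose lowest library exceeded the highest of every other group, the next being a WT day 0 library at 2434. Tax1bp1, another ubiquitin-binding receptor, gave 462, 454, 433 and 424 in KO and 302, 275, 243 and 282 in WT, a 1.61-fold difference (log2 0.69 ± 0.08, adjusted p = 0.000813). The other soluble receptors did not pass the test. Nbr1, a partner of p62 in aggregate clearance, gave means of 37.9 in KO and 38.1 in WT, and Optn, a receptor for damaged mitochondria and bacteria, gave 4.48 and 4.2. Calcoco1, a receptor linked to the endoplasmic reticulum and Golgi, read 6.60 to 13.4 in KO and 14.1 to 25.4 in WT, groups that did not overlap but missed the threshold (adjusted p = 0.0698, and 0.0152 with DESeq2).

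Each of the 5 genes of the ATG8 family, whose products coat the growing membrane and hold receptors to it, was higher in KO at day 1. Gabarapl1 gave 228, 200.5, 267 and 215 in KO and 59.3, 63.8, 66.5 and 57.0 in WT, 3.63-fold apart (log2 1.86 ± 0.10, adjusted p = 2.55e-05). This was the largest rise on the log2 scale among the 45 genes at that day. Map1lc3a, which encodes an LC3 protein, gave 35.8, 48.0, 42.6 and 82.8 in KO and 24.6, 13.9, 11.2 and 10.7 in WT (log2 1.73 ± 0.32, adjusted p = 0.00621). Its KO library of replicate 4 stood above the other three. Map1lc3b, which encodes the LC3B protein used to mark autophagosomes, gave 781, 688, 708 and 691 in KO and 389, 377, 315 and 390 in WT, 1.95-fold apart (log2 0.97 ± 0.09, adjusted p = 0.000305). Gabarap ran from 280 to 359 in KO and from 161 to 217 in WT (log2 0.76 ± 0.12, adjusted p = 0.00293), with no overlap. Gabarapl2 was the closest of the family, at 201 to 252 in KO and 118 to 184 in WT (log2 0.57 ± 0.14, adjusted p = 0.0197). Its call was lost without WT replicate 2 (adjusted p = 0.052), without KO replicate 1 (0.0507) and under quantile normalization (0.0883). It was lost with all 24 libraries in 1 fit too.

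**Figure D2:**
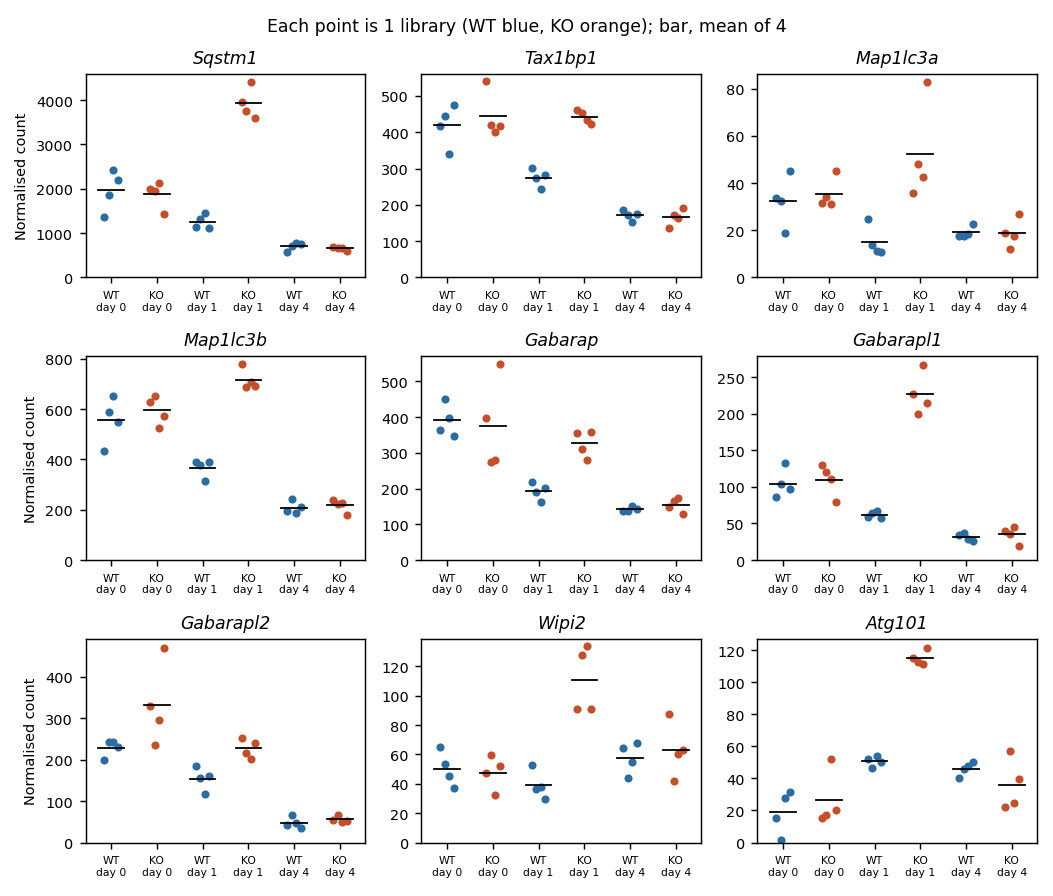
Normalised counts (y axis, linear, from 0) of 9 genes that were higher in KO at day 1, in the 6 groups of genotype and day (x axis); each point is 1 library and the bar is the mean of 4. For Sqstm1 the KO day 1 libraries, at 3606 to 4409, lie above all other libraries, and for Gabarapl1 they lie at 200.5 to 267 with no other library above 132.2.

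In the ULK1 kinase complex 3 of 5 genes were higher in KO at day 1. Atg101, a scaffold of the complex that steadies ATG13, was tight within groups, at 115, 113, 111 and 121 in KO and 52.4, 46.3, 54.2 and 50.4 in WT (log2 1.16 ± 0.08, adjusted p = 7.37e-05). With all 24 libraries in 1 fit it missed the threshold (adjusted p = 0.207), and its day 0 libraries spread from 1.5 to 52.3 over both genotypes. Ulk1, the kinase, gave 35.1, 40.6, 48.9 and 52.9 in KO and 15.1, 22.7, 23.9 and 19.9 in WT, 2.13-fold apart (log2 1.09 ± 0.18, adjusted p = 0.00422). Rb1cc1, which encodes the scaffold FIP200, read 28.9 to 59.4 in KO and 11.6 to 27.9 in WT (log2 1.08 ± 0.30, adjusted p = 0.0338). The gap between its groups was narrow, and the call was lost on leaving out WT replicate 2, 3 or 4 or KO replicate 2, 3 or 4, with adjusted p from 0.0558 to 0.0932. Ulk2, a second form of the kinase, and Atg13 did not pass the test, with means of 5.35 and 15.3 in KO and 5.31 and 12.3 in WT.

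None of the 6 genes of the class III PI3-kinase complexes (0 by limma, and 0 at an unadjusted p under 0.05) differed between the genotypes at day 1. Becn1, the regulatory subunit Beclin 1, was nearly equal, at 134 to 159 in KO and 143 to 169 in WT. The lipid kinase itself, Pik3c3, spread from 0.750 to 14.4 over the KO libraries and from 10.1 to 17.8 over the WT libraries. Downstream of it, 4 of 8 genes of lipid transfer, PI3P binding and the endoplasmic reticulum membrane were called. Atg2a, which carries lipid from the endoplasmic reticulum to the growing membrane, gave 11.9, 26.3, 18.8 and 16.8 in KO and 4.76, 5.85, 7.20 and 3.77 in WT, 3-fold apart (log2 1.58 ± 0.28, adjusted p = 0.00523). Its paralog Atg2b gave 22.6 to 27.2 in KO and 10.2 to 17.3 in WT (log2 0.94 ± 0.18, adjusted p = 0.00714). Wipi2, which reads PI3P and brings ATG16L1 to the membrane, gave 91.2, 128, 134 and 90.7 in KO and 52.9, 36.5, 37.9 and 29.95 in WT (log2 1.48 ± 0.20, adjusted p = 0.00159). Vmp1, a protein of the endoplasmic reticulum that moves lipid between leaflets, was lower in KO, at 163 to 220 against 243 to 276 (log2 -0.44 ± 0.10, adjusted p = 0.016).

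The conjugation system moved in both directions. Atg12, the ubiquitin-like protein joined to ATG5, gave 104, 59.7, 90.4 and 81.2 in KO and 33.8, 32.6, 40.7 and 30.7 in WT (log2 1.24 ± 0.17, adjusted p = 0.00183). Its partner Atg5 was lower, at 43.1, 46.3, 50.5 and 44.4 in KO and 86.0, 59.8, 60.5 and 74.4 in WT (log2 -0.58 ± 0.13, adjusted p = 0.0149). The 2 genes of a conjugate thus stood on opposite sides of the genotype difference. Atg10, the E2-like enzyme that joins them, gave 6.07 to 17.8 in KO and 17.9 to 25.6 in WT (log2 -1.08 ± 0.29, adjusted p = 0.0273), and the call was lost without WT replicate 1, 2 or 4 or KO replicate 2, 3 or 4 (adjusted p from 0.0503 to 0.075). Atg3, Atg7 and Atg16l1 did not pass the test. Of the 4 ATG4 proteases, which trim ATG8 proteins, Atg4c was called lower at 1.47 to 3.68 in KO and 3.92 to 6.35 in WT (log2 -0.95 ± 0.28, adjusted p = 0.0406). Its values were low, and the call was lost without WT replicate 1, 2, 3 or 4 or KO replicate 1, 2 or 4 (adjusted p from 0.0545 to 0.099).

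All 3 mitophagy receptors, which sit on the outer membrane of mitochondria and bind ATG8 proteins, were called at day 1, with their directions split. Bnip3l, also known as NIX, was higher in KO, at 162, 170, 154 and 167 against 141, 108, 104 and 114 in WT (log2 0.49 ± 0.10, adjusted p = 0.011). Its paralog Bnip3 was lower, at 21.1, 21.2, 21.9 and 27.5 against 32.2, 36.04, 34.3 and 30.4 (log2 -0.52 ± 0.13, adjusted p = 0.0187), a call lost without WT replicate 2 (adjusted p = 0.0606). Fundc1 was lower too, at 39.0, 36.7, 41.4 and 40.3 against 78.8, 62.1, 49.4 and 67.3 (log2 -0.68 ± 0.14, adjusted p = 0.0101). Stx17, the SNARE protein that joins the closed autophagosome to the lysosome, gave 19.7, 6.84, 11.97 and 13.2 in KO and 27.6, 28.5, 29.1 and 23.6 in WT (log2 -1.10 ± 0.27, adjusted p = 0.0209). Its call was lost without WT replicate 1, 2 or 3 (adjusted p from 0.0511 to 0.0605). Epg5 and Tecpr1, which tether the 2 membranes, did not pass the test.

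**Figure D3:**
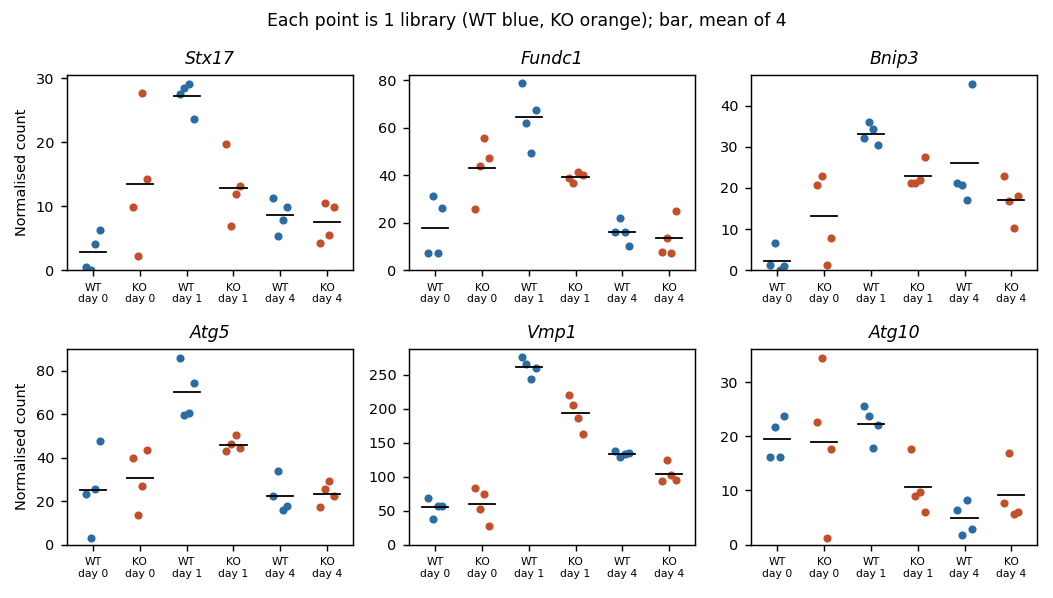
Normalised counts (y axis, linear, from 0) of 6 genes that were lower in KO at day 1, in the 6 groups (x axis); each point is 1 library and the bar is the mean of 4. At day 1 Stx17 lies at 6.84 to 19.7 in KO and 23.6 to 29.1 in WT, while at day 0 the libraries of both genotypes spread widely.

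The upstream sequences of 4 genes are shown as examples of each direction at day 1, Sqstm1 and Gabarapl1 for the genes higher in KO and Atg5 and Bnip3 for those lower. They are the 250 bases before the transcription start, 5′ to 3′ on the gene's strand, from RefSeq on GRCm38.p6, which is another build than the mm39 of the count table. Capitals mark the GC box (GGGCGG on either strand) and the E-box (CACGTG, its own reverse complement).
Sqstm1 (chr11:50210821-50211070, minus strand): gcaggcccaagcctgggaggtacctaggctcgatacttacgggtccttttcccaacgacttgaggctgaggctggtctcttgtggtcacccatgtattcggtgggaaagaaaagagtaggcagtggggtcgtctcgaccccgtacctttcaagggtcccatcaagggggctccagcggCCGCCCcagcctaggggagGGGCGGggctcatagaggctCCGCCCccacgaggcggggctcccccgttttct
Gabarapl1 (chr6:129532942-129533191, plus strand): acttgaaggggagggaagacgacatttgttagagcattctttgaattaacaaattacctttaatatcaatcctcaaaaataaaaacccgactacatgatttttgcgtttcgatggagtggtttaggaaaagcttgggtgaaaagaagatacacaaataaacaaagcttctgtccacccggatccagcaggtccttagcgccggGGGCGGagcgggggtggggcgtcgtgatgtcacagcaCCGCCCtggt
Atg5 (chr10:44268089-44268338, plus strand): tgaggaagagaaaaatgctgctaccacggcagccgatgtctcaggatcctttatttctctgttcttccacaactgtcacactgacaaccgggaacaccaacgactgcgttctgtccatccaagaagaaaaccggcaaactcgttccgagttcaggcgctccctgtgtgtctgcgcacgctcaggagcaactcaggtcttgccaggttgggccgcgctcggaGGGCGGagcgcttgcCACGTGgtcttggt
Bnip3 (chr7:138909507-138909756, minus strand): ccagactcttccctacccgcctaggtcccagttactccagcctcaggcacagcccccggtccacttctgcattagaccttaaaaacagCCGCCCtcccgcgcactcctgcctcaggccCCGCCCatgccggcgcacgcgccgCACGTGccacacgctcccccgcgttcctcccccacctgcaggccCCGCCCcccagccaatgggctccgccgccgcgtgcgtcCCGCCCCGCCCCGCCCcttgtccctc
The Sqstm1 window held 3 GC boxes, at 72, 53 and 33 bases before the start, and Gabarapl1 held 2, at 47 and 10 bases. Atg5 held an E-box at 14 bases and Bnip3 at 108 bases, and 3 of the 6 GC boxes of Bnip3, at 26, 21 and 16 bases, overlap. Of the 45 genes 37 had a promoter in the RefSeq table, 11 of them among those higher at day 1. The GC box was found in 22 of 37 genes, or 59.5%, and in 35.4% of all 27025 genes of the table, a gene being counted if any of its promoters held a match. It stood in 7 of the 11 genes that were higher and in 15 of the other 26. The E-box was found in 4 of 37 (Atg3, Atg5, Atg7 and Bnip3) and in 6.86% of all genes, and its longer form TCACGTGA, which contains it, in 1 of 37 and 0.907%. None of the 11 held either form. The core of the antioxidant response element (TGACNNNGC, both strands) was found in 5 of 37 genes, 1 of them among the 11, and in 11.5% of all genes, and the core of the heat shock element (GAANNTTC) in 2 of 37 and 7.73%. The forkhead site GTAAACA and the amino acid response core TGATGNAA were in 0 of 37, beside 3.54% and 3.91% of all genes. A match is a description of these letters, and a lack of matches covers only this window.

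Genes around the pathway were called at day 1 as well. Of 53 upstream regulators, further machinery and fusion genes outside the 45, 11 were higher and 7 lower in KO, or 34.0%, beside the 23.3% of all genes tested. Among regulators, Stk11, the kinase LKB1, read 40.2 in KO and 12.2 in WT on average (log2 1.65 ± 0.19, adjusted p = 0.000725). Rheb, the activator of mTORC1, read 363 and 166 (log2 1.14 ± 0.16, adjusted p = 0.00181). Tfeb, a transcription factor of autophagy and lysosome genes, was low in both, at 6.13 and 1.90 (log2 1.23 ± 0.38, adjusted p = 0.0458). Plekhm1, an adaptor that links ATG8 proteins to fusion with lysosomes, read 10.1 and 2.75 (log2 1.57 ± 0.22, adjusted p = 0.00172). Lower in KO were Bcl2, which binds Beclin 1, at 13.5 against 35.5 (log2 -1.37 ± 0.20, adjusted p = 0.00206), and Ccpg1, a receptor for the endoplasmic reticulum, at 15.4 against 38.7 (log2 -1.29 ± 0.18, adjusted p = 0.00168).

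Other markers moved between the genotypes at day 1 as well. The summed level of the 6 myofibre markers in the table was 135 to 195 in WT and 13.9 to 46.3 in KO, with no overlap, and 5 of the 6 were called lower. Of 10 muscle stem cell markers 6 were lower and 2 higher in KO, and of 8 dissociation stress genes 4 were lower and 2 higher, the last being Hspa1a and Hspa1b. The summed level of 4 activated myoblast markers was 858 to 1307 in WT and 1598 to 2209 in KO, with no overlap. Myod1, a transcription factor of myoblasts, made up most of this sum and was higher in KO, at a mean of 1820 against 969 (log2 0.92 ± 0.16, adjusted p = 0.00554). Of the 4, Top2a, a gene of dividing cells, was lower. The KO means of Mki67 (4.61 against 10.1) and Myog (4.54 against 20.4) were below those of WT too, in groups that overlapped. The sum of 12 macrophage and monocyte markers overlapped, at 6.99 to 27.0 in WT and 14.8 to 27.4 in KO, with none of the 12 at 0 in all WT libraries and 1 at 0 in all KO libraries. The part of these markers in the day 1 differences of the 45 genes was not tested.

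**Figure D4:**
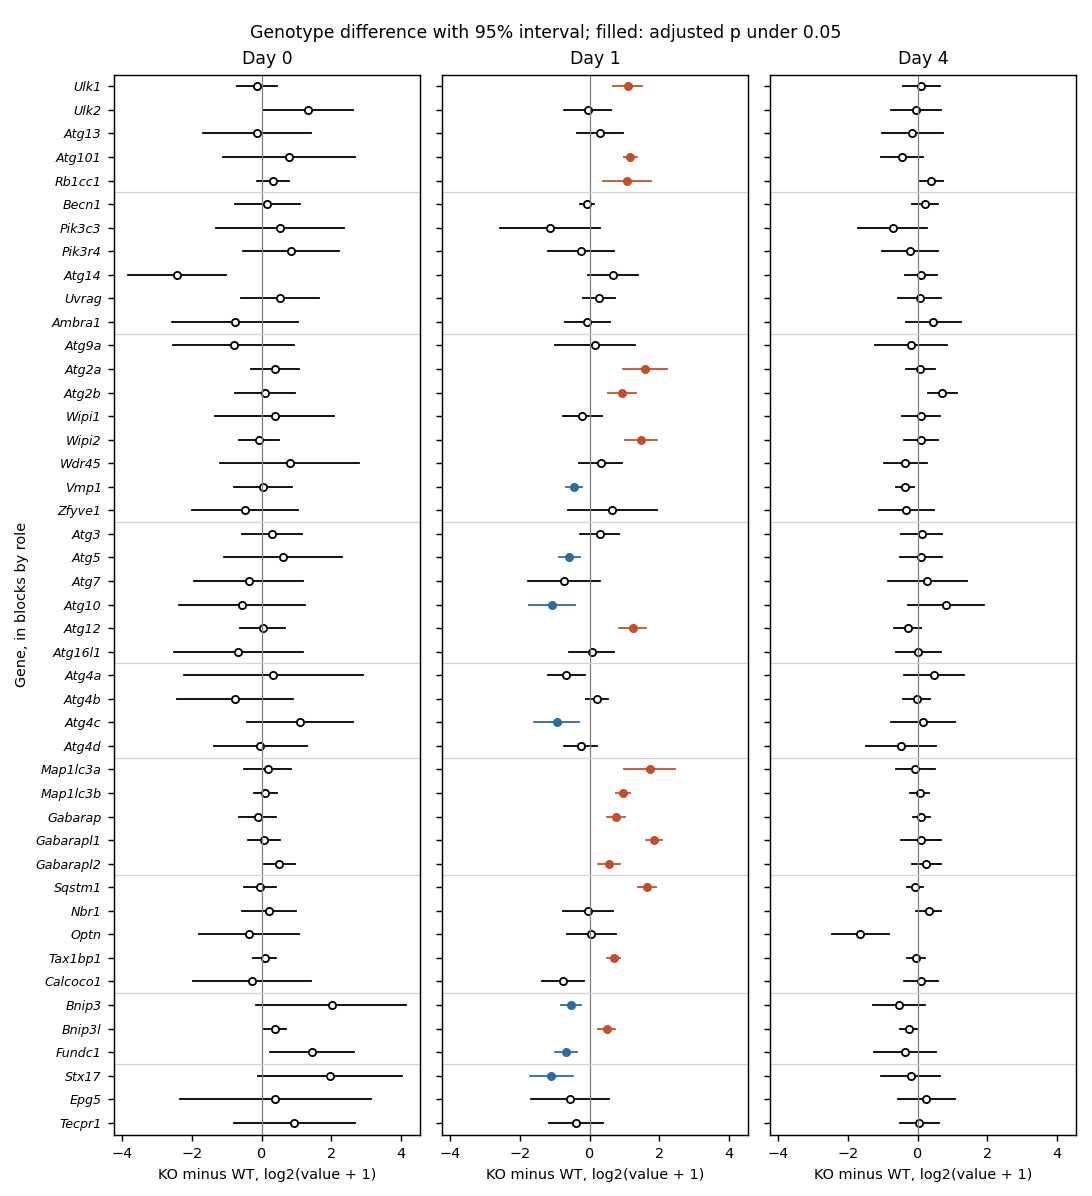
KO minus WT difference of each of the 45 genes (y axis, in blocks by role) on the log2(value + 1) scale (x axis) at days 0, 1 and 4, with the 95% interval from limma; filled points passed an adjusted p of 0.05, orange for higher and blue for lower in KO. Filled points appear at day 1 only, 15 higher and 7 lower, and the intervals are widest at day 0.

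At day 0 none of the 45 genes passed the test between the genotypes (0 by limma), beside 0.400% of all genes tested. With edgeR 0 passed, beside 0.294% of all genes, and with DESeq2 1, beside 5.25%. At an unadjusted p of limma under 0.05 there were 5 of 45, and 11.8% of all genes. The groups lay apart for 2 of the 45, Atg14 and Bnip3l, beside 6.97% of all genes. The gene nearest the threshold was Atg14, the subunit that directs the PI3-kinase to sites of autophagosome formation. Its 4 KO libraries gave 1.96, 1.04, 6.38 and 2.79, below all 4 WT libraries at 21.7, 7.26, 25.1 and 27.3 (log2 -2.42 ± 0.61, adjusted p = 0.154). DESeq2 called it lower (adjusted p = 0.00586), as did the fit over all 24 libraries (adjusted p = 0.000368), which lends day 0 the smaller spread of the later days. That fit also called Ulk2, Fundc1, Stx17 and Bnip3 higher in KO (adjusted p from 0.0242 to 0.0471), 5 genes in all, beside 9.75% of all genes. Sqstm1 gave 1962 in WT and 1882 in KO on average at day 0, and Gabarapl1 105 and 110. The intervals were wide at this day: for Stx17 the WT libraries ran from 0.110 to 6.28 and the KO libraries from 2.18 to 27.7.

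At day 4 the count was again 0 (0 by limma), beside 0.754% of all genes tested, with 5 of 45 at an unadjusted p under 0.05 and 12.1% of all genes. With edgeR the count was 0, beside 0.577% of all genes, and with DESeq2 2, beside 2.72%. The groups lay apart for 4 of 45 (Atg2b, Vmp1, Optn and Bnip3l), beside 7.70% of all genes. Sqstm1 gave 570, 707, 770 and 750.0 in WT and 696, 657, 669 and 605 in KO, groups that overlapped. The ATG8 family overlapped in all 5 genes too. Optn was nearest the threshold, at 0.432, 0.206, 0.171 and 0.941 in KO and 4.10, 1.54, 3.19 and 5.83 in WT (log2 -1.64 ± 0.37, adjusted p = 0.0958, and 0.0177 with DESeq2). These KO values lie near 0.145 to 0.320, the value that a limit of 3 counts takes in these libraries, so they rest on few reads. Atg2b gave 57.8, 34.8, 43.1 and 55.6 in KO and 24.6, 30.04, 31.1 and 27.7 in WT without overlap (log2 0.71 ± 0.19, adjusted p = 0.159, and 0.027 with DESeq2).

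In the WT libraries the ATG8 family was lower 1 day after injury than at day 0, and other parts of the machinery were higher. Against day 0, 14 of the 45 genes rose and 13 fell by day 1, or 60.0%, beside 50.0% of all genes tested (26.7% higher and 23.2% lower). The days lay apart for 25 of the 45, beside 49.5% of all genes. All 5 ATG8 genes fell by 0.58 to 1.07 on the log2 scale. Gabarap went from 365, 452, 398 and 348 at day 0 to 217, 191, 161 and 202 at day 1 (log2 -1.02 ± 0.13, adjusted p = 0.000318). Gabarapl1 went from 85.8–132 over the day 0 libraries to 57.0–66.5 over the day 1 libraries (log2 -0.74 ± 0.15, adjusted p = 0.00429). The fall of Map1lc3a was lost on leaving out any of 6 of the 8 libraries (WT day 0 replicates 1, 2 and 4 and WT day 1 replicates 2, 3 and 4, adjusted p from 0.0622 to 0.088). Sqstm1 went from 1362–2434 at day 0 to 1126–1449 at day 1, groups that overlapped (log2 -0.61 ± 0.18, adjusted p = 0.0216). It missed the threshold without day 0 replicate 3 or 4 or day 1 replicate 1 or 4 (adjusted p from 0.0521 to 0.0632).

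Ulk1, Rb1cc1 and the lipid carrier Atg2a fell steeply in the same WT comparison, while other genes of initiation rose. Ulk1 gave 150, 117, 118 and 124 at day 0 and 15.1, 22.7, 23.9 and 19.9 at day 1 (log2 -2.60 ± 0.18, adjusted p = 1.82e-05). Rb1cc1 gave 132, 120, 80.2 and 141 and then 27.9, 19.5, 11.6 and 14.1 (log2 -2.68 ± 0.30, adjusted p = 0.000162). Atg2a fell from 25.7–30.9 over day 0 to 3.77–7.20 over day 1 (log2 -2.18 ± 0.26, adjusted p = 0.000225), and no library of these 3 genes overlapped between the days. Atg13, which binds ULK1 in the same complex, rose from a mean of 3.19 to 12.3 (log2 1.85 ± 0.53, adjusted p = 0.0194), a call lost without day 1 replicate 2 (0.0532) or 3 (0.062) and with the replicate block (0.0586). Becn1 rose too (log2 1.38 ± 0.39, adjusted p = 0.0177). Atg101 had a log2 difference of 1.89 ± 0.74 and was not called (adjusted p = 0.0633). Vmp1 gave 67.8, 37.0, 56.7 and 57.3 at day 0 and 276, 266, 243 and 259 at day 1 (log2 2.26 ± 0.18, adjusted p = 3.39e-05). Bnip3 rose from 0.116–6.53 to 30.4–36.04 (log2 3.77 ± 0.55, adjusted p = 0.000676). Stx17 rose from 0.110–6.28 to 23.6–29.1 (log2 3.30 ± 0.61, adjusted p = 0.00231). The lowest day 0 libraries of both genes lie under the value of 3 counts, so the sizes of these rises depend on the pseudocount. The PI3-kinase subunits Pik3c3 and Pik3r4 rose from low levels, with mean values of 2.22 and 0.613 at day 0 and 14.1 and 7.92 at day 1. Markers of other cells and states moved between these days as well. In WT the summed endothelial markers went from 141–255 to 20.7–35.7, those of fibro-adipogenic progenitors from 452–771 to 183–315 and the dissociation stress genes from 3938–4850 to 2071–2894. Within the stress sum the means of Hspa1b (2244 to 145), Hspa1a (946 to 88.4), Atf3 (189.5 to 133) and Jun (108 to 103) fell. Those of Fos (327 to 584), Fosb (144 to 215), Junb (218 to 780) and Egr1 (193.5 to 335.5) rose. Summed markers of activated myoblasts went up from 62.0–164 to 858–1307 and those of myofibres from 3.72–8.70 to 135–195. None of these sums overlapped between the days. Tek made up most of the endothelial sum, at means of 201 and 25.7, beside 4.18 and 0.567 for Pecam1. Most of the fibro-adipogenic sum was Dcn (319 and 69.0) and Dpt (166 and 140). In that list Col1a1 stood at 0.570 and 1.71 and Pdgfra at 0.0357 and 0.0749. The part of all these markers in the changes of the 45 genes was not tested.

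In KO cells 10 of the 45 genes rose and 4 fell by day 1, or 31.1%, beside 39.9% of all genes tested (21.3% higher and 18.6% lower), and the days lay apart for 14, beside 40.2%. Sqstm1 rose, from 2006, 1953, 2132 and 1436 at day 0 to the 3606–4409 given above (log2 1.07 ± 0.14, adjusted p = 0.000463). Gabarapl1 rose as well, from 130, 120.1, 111 and 79.3 to 200.5–267 (log2 1.05 ± 0.17, adjusted p = 0.00171). No other ATG8 gene passed the test: Map1lc3b went from 526–654 to 688–781 (log2 0.27 ± 0.10, adjusted p = 0.0586), and Gabarap overlapped between the days. Ulk1 fell from 69.0–154 to 35.1–52.9 (log2 -1.37 ± 0.26, adjusted p = 0.00349), and Rb1cc1 from 133–163 to 28.9–59.4 (log2 -1.93 ± 0.23, adjusted p = 0.00032). Wipi2 rose from 32.2–59.3 to 90.7–134 (log2 1.21 ± 0.23, adjusted p = 0.0033), and Atg101 from 15.2–52.3 to 111–121 (log2 2.26 ± 0.35, adjusted p = 0.0012). Ulk2 fell from 13.8–42.6 to 3.42–8.53 (log2 -1.76 ± 0.46, adjusted p = 0.0152). Quantile normalization moved the split to 10 higher and 8 lower, and DESeq2 to 10 and 7, beside 38.9% and 44.9% of all genes called. Of the genes called in both genotypes, 7 went the same way and 3 (Sqstm1, Gabarapl1 and Atg14) went opposite ways. The same was not counted over all genes, so whether this split is unusual is not known. The rise of Atg14 in KO (adjusted p = 0.0476) was lost with edgeR (0.0999) and without day 0 replicate 1, 2 or 4 or any day 1 library (0.0662 to 0.136). In KO the summed endothelial markers went from 82.9–177 to 11.6–20.1, those of fibro-adipogenic progenitors from 898–1219 to 119–465 and those of activated myoblasts from 74.2–225 to 1598–2209, while the sums for myofibres and dissociation stress overlapped. The part of these shifts was not tested.

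The difference between the 2 responses from day 0 to day 1 was tested as an interaction over 16 libraries. It was called for 11 of the 45 genes, 9 with a higher and 2 with a lower response in KO, or 24.4%, beside 9.25% of all genes (6.17% higher and 3.08% lower) and 9.43% of the 53 other autophagy genes. Under the stricter filter, which removed Optn and Atg4c, 12 genes were called, beside 14.7% of the genes left. For Gabarapl1 the responses differed by 1.79 ± 0.24 on the log2 scale (adjusted p = 0.000226). For Sqstm1 they differed by 1.69 ± 0.23 (adjusted p = 0.000244). Wipi2 (log2 1.55 ± 0.34, adjusted p = 0.00852) and Atg14 (log2 3.10 ± 0.68, adjusted p = 0.00854) were also called, Atg14 from the low KO values of day 0. These 4 genes passed the test in each of 27 alternatives. Map1lc3b (log2 0.86 ± 0.17, adjusted p = 0.00521) missed it under quantile normalization (adjusted p = 0.101). Ulk1, Atg12, Map1lc3a and Tax1bp1, with a higher response in KO, and Fundc1 and Stx17, with a lower one, had adjusted p from 0.0266 to 0.049 and each missed it on leaving out 1 of several libraries (adjusted p up to 0.101). The count went from 11 to 5 without WT day 1 replicate 4 or KO day 1 replicate 4, to 6 without WT day 0 replicate 1, WT day 1 replicate 2 or KO day 1 replicate 3, and to 7 without WT day 1 replicate 1 or KO day 1 replicate 2. With 1 library left out, 6.45% to 9.97% of all genes were called.

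**Figure D5:**
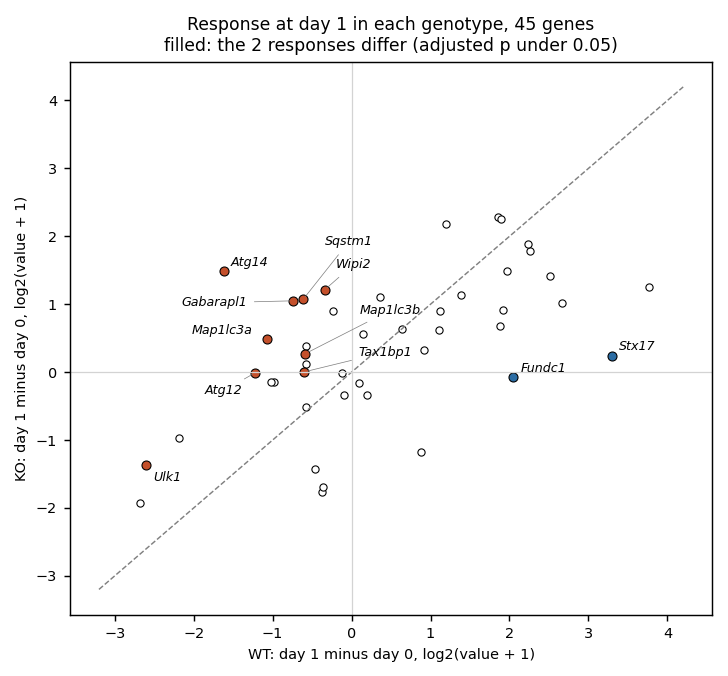
Change from day 0 to day 1 in KO (y axis) against the change in WT (x axis), as differences of mean log2(value + 1), for the 45 genes; the dashed line marks equal changes and filled points passed the interaction test, orange for a higher and blue for a lower response in KO. Sqstm1 (-0.61 in WT, 1.07 in KO) and Gabarapl1 (-0.74 and 1.05) lie above the line in the quadrant of opposite changes, and Fundc1 and Stx17 lie below the line.

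From day 1 to day 4 Gabarapl1 and Gabarapl2 fell in both genotypes, Gabarapl1 from a higher level in KO. Over these days 17 genes rose and 16 fell in WT (73.3%, beside 69.4% of all genes tested, 38.3% higher and 31.1% lower), and 13 rose and 18 fell in KO (68.9%, beside 53.4%, 27.7% higher and 25.7% lower). The days lay apart for 30 of the 45 in WT, beside 62.4% of all genes, and for 27 in KO, beside 50.1%. In KO, Sqstm1 fell from 3606–4409 to 605–696 (log2 -2.58 ± 0.09, adjusted p = 2.79e-08), and Gabarapl1 from 200.5–267 to 19.1–45.5 (log2 -2.72 ± 0.24, adjusted p = 6.65e-06). In WT, Gabarapl1 fell from 57.0–66.5 to 25.8–36.7 (log2 -0.96 ± 0.14, adjusted p = 6.85e-05), and Gabarapl2 from 118–184 to 36.2–65.3 (log2 -1.69 ± 0.18, adjusted p = 5.58e-06). The values of WT Sqstm1 fell by 0.85 on the log2 scale, of Map1lc3b by 0.82, of Tax1bp1 by 0.68 and of Gabarap by 0.43, but under quantile normalization these 4 turned to 0.38, 0.20, 0.31 and 0.51. In KO the same scaling turned Gabarap from -1.08 to 0.14, Vmp1 from -0.89 to 0.07 and Bnip3l from -0.87 to 0.01. In WT, Sqstm1, Tax1bp1 and Gabarap still passed the test after that scaling, as rises (limma, adjusted p no higher than 0.0213, 0.0232 and 0.0373). Map1lc3b in WT did not pass (adjusted p = 0.122), nor did Gabarap (0.445), Vmp1 (0.716) and Bnip3l (0.95) in KO. The median of all genes was 0.221 in WT and 0.182 in KO as deposited, and -0.00364 and 0.00572 after quantile normalization. This was the only one of 19 alternatives that removed or reversed these calls.

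Other genes rose from day 1 to day 4. In WT, Rb1cc1 rose from 11.6–27.9 to 77.5–115 (log2 2.36 ± 0.23, adjusted p = 2.57e-06), and Atg2a from 3.77–7.20 to 23.7–35.4 (log2 2.3 ± 0.22, adjusted p = 2.09e-06). Zfyve1, a PI3P-binding protein that marks the cradle of the autophagosome, rose from 0.960–3.05 to 9.4–17.04 (log2 2.56 ± 0.30, adjusted p = 1.21e-05). In KO the tethering gene Epg5 rose from 0.917–9.24 to 12.1–41.1 (log2 2.68 ± 0.55, adjusted p = 0.00197), and Tecpr1 from 1.85–3.64 to 11.5–16.6 (log2 2.04 ± 0.33, adjusted p = 0.000416). Rb1cc1 rose in KO from 28.9–59.4 to 99.1–139 (log2 1.67 ± 0.22, adjusted p = 0.000126). Not all genes of initiation and membrane growth rose. Becn1 fell in WT (log2 -1.32 ± 0.14, adjusted p = 4.58e-06) and in KO (log2 -1.04 ± 0.14, adjusted p = 0.000107, and 0.197 under quantile normalization). In KO, Atg101 fell (log2 -1.75 ± 0.26, adjusted p = 0.000272), as did Wipi2 (log2 -0.82 ± 0.23, adjusted p = 0.0115, and 0.717 under quantile normalization). Of 6 conjugation genes 4 fell and 2 rose in WT. Atg7, the E1-like enzyme, gave 17.8, 24.2, 37.5 and 20.8 at day 1 and 5.21, 3.47, 5.78 and 5.26 at day 4 (log2 -2.10 ± 0.26, adjusted p = 1.51e-05). Atg10 gave 25.6, 23.7, 17.9 and 22.2 and then 6.45, 1.83, 8.25 and 2.90 (log2 -2.14 ± 0.35, adjusted p = 0.000147). Neither passed the test in KO, where Atg7 had an adjusted p of 0.146. Fundc1 fell in both, to 10.2 to 22.02 in WT (log2 -1.96 ± 0.22, adjusted p = 6.91e-06) and 7.34 to 25.0 in KO (log2 -1.64 ± 0.34, adjusted p = 0.00235).

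Relative to uninjured cells, 8 genes were higher and 9 lower at day 4 in WT (37.8%, beside 40.0% of all genes tested, 22.8% higher and 17.2% lower), and 6 were higher and 11 lower in KO (37.8%, beside 27.1%, 13.8% higher and 13.3% lower). Gabarapl2 gave 200, 243, 243 and 230 at day 0 and 41.9, 65.3, 47.0 and 36.2 at day 4 in WT (log2 -2.27 ± 0.19, adjusted p = 1.18e-05), and in KO it went from 236–470 to 49.8–66.3 (log2 -2.52 ± 0.22, adjusted p = 2.26e-05). Of the ATG8 family 4 genes were lower in WT and 5 in KO. In KO the call of Map1lc3a (adjusted p = 0.0478) was lost in 12 of 19 alternatives, among them leaving out any library but day 4 replicate 4 (adjusted p from 0.0653 to 0.115). Quantile normalization removed those of Gabarap in KO (adjusted p = 0.246) and Map1lc3b in WT (0.0579). Sqstm1 was lower by 1.46 in WT (adjusted p = 0.000124) and by 1.5 in KO (adjusted p = 2.57e-05) on the log2 scale, calls that quantile normalization removed (adjusted p = 0.312 and 0.227). With that scaling the split was 12 higher and 5 lower in WT and 8 and 5 in KO. The PI3-kinase subunits Pik3c3 (log2 2.83 ± 0.61, adjusted p = 0.00451, and 0.0573 with edgeR) and Pik3r4 (log2 2.79 ± 0.41, adjusted p = 0.000485) were higher in WT at day 4, with means of 15.7 and 9.68. Atg10 was lower there (log2 -1.95 ± 0.44, adjusted p = 0.00585). Wipi1, a PI3P reader, rose in WT from 1.20–8.74 to 19.2–22.3 (log2 2.25 ± 0.50, adjusted p = 0.00569), and Bnip3 from 0.116–6.53 to 17.1–45.3 (log2 3.34 ± 0.60, adjusted p = 0.00164). In KO, Atg14 rose from 1.04–6.38 to 17.5–24.04 (log2 2.58 ± 0.49, adjusted p = 0.00324).

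The interaction from day 1 to day 4 was called for 13 of the 45 genes, 12 with a lower and 1 with a higher change in KO, or 28.9%, beside 8.97% of all genes tested (2.64% higher and 6.33% lower). Under the stricter filter, which Optn and Atg4c did not pass, 13 were called, beside 14.6% of the genes left. This interaction shares the day 1 libraries with the interaction before it. Sqstm1 had the smallest p of the 45 (log2 -1.73 ± 0.15, adjusted p = 7.29e-07). Gabarapl1 (log2 -1.76 ± 0.29, adjusted p = 0.000743), Atg12 (log2 -1.52 ± 0.26, adjusted p = 0.000952) and Map1lc3b (log2 -0.90 ± 0.16, adjusted p = 0.00133) followed. Atg101 (log2 -1.61 ± 0.30, adjusted p = 0.00191) missed the threshold only with all 24 libraries in 1 fit (adjusted p = 0.306). The gene with a higher change, Atg10 (log2 1.90 ± 0.56, adjusted p = 0.041), and Optn (log2 -1.69 ± 0.50, adjusted p = 0.0381) each missed it in 14 alternatives. For Atg10 these included leaving out any WT day 1 library, KO day 1 replicate 2, 3 or 4, WT day 4 replicate 2 or 4 or KO day 4 replicate 2 (adjusted p from 0.0513 to 0.0866). For Optn they included WT day 1 replicate 1, 2 or 3, KO day 1 replicate 1 or 2, WT day 4 replicate 1, 3 or 4 and KO day 4 replicate 2 or 3 (0.0555 to 0.082). Over the 6 injury comparisons 43 of the 45 genes passed the test at least once, or 95.6%, beside 88.7% of all genes tested. Only Atg9a, the membrane protein of the vesicles that seed the autophagosome, passed none of the 11 comparisons, with group means from 5.31 to 9.70.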

How the data were processed

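Bulk RNA-seq of 24 libraries in 6 groups of 4 was deposited as 1 table. The submitters' processing notes name FastQC, STAR, RSEM, limma and the build mm39, with no versions and no strand setting. The deposited normalised signal equals a whole count plus 0.5 over a scaled library size, as tested on the table: 100% of values came back whole within 0.02. Groups came from the labels, and 22 rows without a symbol kept their identifier.

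A gene was tested if it reached 1 in 4 or more libraries, which 16985 of 17111 did and 126 did not. Two-sided tests used limma 3.58.1 in R 4.3.3 on log2(value + 1) with a mean-variance trend, over the 8 libraries compared (16 for interactions), because day 0 libraries varied more. P was adjusted by Benjamini-Hochberg over all genes within each of 11 comparisons, at 0.05, and unless another tool is named adjusted p is limma's. Fold changes are on the log2(value + 1) scale and understate low genes. Ranges cover the 4 libraries of a group. A limit of 3 counts has a value of 0.145 to 0.320 and covers counting error only. Alternatives were no filter, a filter of 5 in 8 libraries, pseudocounts of 0.5 and 5, quantile normalization, no trend, all 24 libraries in 1 fit, library weights, a replicate block, recovered counts in edgeR 4.0.16 and in DESeq2 1.42.0, and leaving out each library. The fit was tested on simulated data. The 45 genes, the lists and the genes to be named were chosen with earlier results of these data known. By the naming rule each of the 45 may be named. Library values are given for those passing a genotype or interaction test, for up to 3 a direction in the WT injury comparisons, and for 6 set by name (Sqstm1, Map1lc3b, Map1lc3a, Gabarapl1, Ulk1, Bnip3). Other genes were limited to Lamp2 and up to 3 per list.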

Additional observations from a re-analysis of the deposited data

Results flagged for a closer look

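Among the 270 groups of 4 libraries (45 genes in 6 groups), 16 held a library whose gap to its nearest neighbour took a share of the group's range above Dixon's critical value, or 5.93%, where chance alone gives about 1 in 20. At day 0 the high libraries were Ulk2 at 42.6 and Tax1bp1 at 542 in KO replicate 1, Atg101 at 52.3 and Zfyve1 at 3.12 in KO replicate 3, and Pik3c3 at 7.26, Atg7 at 16.2 and Bnip3 at 6.53 in WT replicate 2. Atg4b was low there, at 11.3 in WT replicate 1. At day 1 replicate 1 stood apart for Atg3 in both genotypes, high at 120 in WT and low at 64.7 in KO. Also at day 1, WT replicate 1 was low for Atg4d at 13.6, WT replicate 3 was low for Map1lc3b at 315, and KO replicate 4 was high for Bnip3 at 27.5. At day 4, WT libraries were low for Atg14 at 14.4 in replicate 3 and for Wipi1 at 19.2 in replicate 2, and high for Bnip3 at 45.3 in replicate 4.

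The change between days differed between the genotypes in 24 tests of the interaction (limma). From day 0 to day 1 the KO minus WT difference of the changes, on the log2 scale, was 3.10 for Atg14, 1.79 for Gabarapl1, 1.69 for Sqstm1, 1.56 for Map1lc3a, 1.55 for Wipi2, 1.22 for Ulk1, 1.21 for Atg12, 0.86 for Map1lc3b and 0.60 for Tax1bp1. It was -2.13 for Fundc1 and -3.06 for Stx17. From day 1 to day 4 it was -1.79 for Map1lc3a, -1.76 for Gabarapl1, -1.73 for Sqstm1, -1.69 for Optn, -1.61 for Atg101, -1.52 for Atg12, -1.50 for Atg2a, -1.38 for Wipi2, -0.90 for Map1lc3b, -0.75 for Bnip3l, -0.74 for Tax1bp1 and -0.65 for Gabarap, and 1.90 for Atg10. Adjusted p ran from 7.29e-07 for Sqstm1 from day 1 to day 4 to 0.049 for Stx17 from day 0 to day 1.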

How the results depend on the processing

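Of the 22 genes called at day 1 between the genotypes, 12 passed under all 19 alternatives: Sqstm1, Tax1bp1, Gabarapl1, Map1lc3a, Map1lc3b, Gabarap, Ulk1, Atg12, Atg2a, Atg2b, Wipi2 and Bnip3l. With all 24 libraries in 1 fit the count of genes called was 13 at day 1 and 5 at day 0. DESeq2 called 1 gene at day 0 and 2 at day 4, beside 5.25% and 2.72% of all genes. Under the stricter filter day 1 against day 0 gave 28 in WT and 17 in KO, beside 63.0% and 52.2% of the genes left. Day 4 against day 1 gave 33 and 30, beside 78.0% and 65.0%, and day 4 against day 0 gave 19 and 19, beside 48.1% and 37.6%. The interaction from day 0 to day 1 fell from 11 genes to 5 under quantile normalization, beside 7.37% of all genes. It fell to 7 with no mean-variance trend, beside 8.01%, and with edgeR, beside 7.38%. DESeq2 gave 8 higher and 4 lower, beside 14.3%. With all 24 libraries in 1 fit the day 4 against day 0 split was 14 higher and 9 lower in WT and 11 and 12 in KO, beside 44.6% and 40.5% of all genes called. Quantile normalization gave 22 and 12 for WT from day 1 to day 4, beside 61.4%. That scaling turned, from day 1 to day 4, Tax1bp1 to 0.31, Sqstm1 to 0.38, Gabarap to 0.51 and Map1lc3b to 0.20 in WT, and Vmp1 to 0.0737, Gabarap to 0.14 and Bnip3l to 0.0107 in KO; the cause was not tested. Leaving out 1 library at a time gave 16 to 20 genes for KO against WT at day 1, beside 15.3% to 21.9% of all genes. It gave 0 to 0 at days 0 and 4, beside 0.0294% to 0.383% and 0.330% to 0.689%. For day 1 against day 0 it gave 20 to 27 in WT and 11 to 18 in KO, beside 42.2% to 50.6% and 31.8% to 39.5% of all genes. For day 4 against day 1 it gave 31 to 34 in WT and 29 to 31 in KO, beside 65.2% to 68.1% and 46.6% to 52.6%. For day 4 against day 0 it gave 17 to 23 in WT and 13 to 18 in KO, beside 32.6% to 41.4% and 20.3% to 24.5%. For the interactions it gave 5 to 11 from day 0 to 1 and 11 to 13 from day 1 to 4, beside 6.45% to 9.97% and 6.66% to 10.3%.

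Replicate numbers gave no clear pairing of the libraries: deviations of same-numbered libraries correlated at -0.0236 to 0.27. In 13 of 36 cases, 4 in each of 9 comparisons, a library correlated best with its own number. The most was 3 of 4, in WT for day 1 against day 0 and for day 4 against day 0. With the replicate number as a block, 19 genes were called at day 1 (14 higher and 5 lower), beside 22.7% of all genes, and Rb1cc1, Atg4c and Bnip3 missed the threshold. At days 0 and 4 the block gave 0, beside 0.00589% and 0.241% of all genes. Genes with values near 1, such as Optn and Atg4c, rest on few reads, and with 4 libraries a group and the wide spread of day 0, differences there could be missed.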
